A study of Mus musculus with 12 samples.

Results

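The genes described here are 10 mouse genes whose products coat the lipid droplet or break down the fat stored in it: *Plin2*, *Plin3*, *Plin4* and *Plin5* (perilipins), *Cideb* and *Cidec* (CIDE proteins), and *Pnpla2*, *Abhd5*, *G0s2* and *Mgll* (lipolysis). They were chosen by symbol, and all 10 were found, each in 1 row, among the 24537 genes of the deposited liver table. RNA-Seq was run on livers of male C57Bl/6J mice, individually housed and 6 weeks old at the start, that had been on calorie restriction (CR, 30% less food than the controls ate, given at midday as a fortified form of the control chow) or fed ad libitum (Con) for 25 or 30 days. The study's mice, on either diet, also received heavy water before tissue collection. There were 3 mice in each of 4 groups, 1 library per mouse. The comparison asks how these genes' transcripts differed between the diets on either side of the interval between day 25 and day 30.

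Hepatocytes store surplus fatty acids as triglyceride in lipid droplets, each wrapped in a single layer of phospholipid and coated with proteins. Perilipins on that surface govern the access of lipases, and CIDE proteins promote the growth of droplets and, in liver, the loading of lipoproteins with lipid. Triglyceride is released step by step: ATGL (*Pnpla2*), assisted by its coactivator CGI-58 (*Abhd5*) and restrained by *G0s2*, removes the first fatty acid, and monoacylglycerol lipase (*Mgll*) removes the last.

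Against these roles, CR was accompanied by opposite changes within the perilipin family, while none of the 4 lipolysis genes passed the main test at a single day. *Plin2*, the main perilipin of the liver, fell at both days, to 0.605 of the Con mean FPKM at day 25 and 0.502 at day 30. *Plin5*, which is typical of tissues that burn fatty acids and ties droplets to mitochondria, rose 2.52-fold and 2.02-fold. *Plin4*, a perilipin best known from fat tissue and muscle, rose 3.28-fold and 1.98-fold from a low level. FPKM, the unit of the table, scales reads to the length of a gene's exons and to the size of the library. In bulk liver, fewer cells of a type and less RNA per cell cannot be told apart.

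The promoters of the 4 perilipin genes are shown because 3 of these genes passed the test at both days and *Plin3* at neither. Each run is the RefSeq window (GRCm38.p6, the build of the table) from 250 bases before to 50 after the annotated start, 5′ to 3′ on the gene's strand. Capitals mark matches to 3 motifs searched on both strands: a direct repeat of 2 copies of AGGTCA with 1 base between them, allowing 2 mismatches in the 12 letters (the kind of element that PPAR and RXR bind), the E-box with the letters CACGTG that basic helix-loop-helix factors bind, and a run like the start of a core promoter box, with the letters TATAAG, which was added after the sequences had been read.
Plin2: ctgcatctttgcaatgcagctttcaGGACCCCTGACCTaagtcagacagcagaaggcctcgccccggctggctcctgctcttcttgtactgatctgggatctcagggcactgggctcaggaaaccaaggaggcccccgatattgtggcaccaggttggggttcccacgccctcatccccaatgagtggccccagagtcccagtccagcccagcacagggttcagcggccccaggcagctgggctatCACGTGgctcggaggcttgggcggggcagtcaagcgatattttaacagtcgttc
Plin4: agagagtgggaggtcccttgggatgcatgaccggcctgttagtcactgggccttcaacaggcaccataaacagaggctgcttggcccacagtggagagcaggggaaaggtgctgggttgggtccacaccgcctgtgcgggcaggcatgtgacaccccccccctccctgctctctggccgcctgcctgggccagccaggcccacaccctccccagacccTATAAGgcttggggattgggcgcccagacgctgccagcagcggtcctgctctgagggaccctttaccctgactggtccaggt
Plin5: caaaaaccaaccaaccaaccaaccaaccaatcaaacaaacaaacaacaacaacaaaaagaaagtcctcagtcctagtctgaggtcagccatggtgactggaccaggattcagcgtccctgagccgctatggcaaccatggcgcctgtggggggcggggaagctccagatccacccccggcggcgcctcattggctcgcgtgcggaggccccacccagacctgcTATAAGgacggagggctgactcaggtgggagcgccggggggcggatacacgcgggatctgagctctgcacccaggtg
Plin3: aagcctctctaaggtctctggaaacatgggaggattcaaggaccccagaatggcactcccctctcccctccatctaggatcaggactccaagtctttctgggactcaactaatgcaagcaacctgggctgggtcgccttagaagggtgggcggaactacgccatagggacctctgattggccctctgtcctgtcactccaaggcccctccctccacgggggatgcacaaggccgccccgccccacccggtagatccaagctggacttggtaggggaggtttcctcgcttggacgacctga

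*Plin2* lies on chr4:86670010-86670309 (minus strand), with a direct repeat on the opposite strand 225 bases before the start (2 mismatches) and an E-box 4 bases before it. *Plin4* (chr17:56109733-56110032, minus strand) and *Plin5* (chr17:56117499-56117798, minus strand) each hold TATAAG, 32 and 27 bases before the RefSeq start. The deposited table places the *Plin4* start further upstream, at 56109802, so the distance of 32 holds for the RefSeq start only. A second RefSeq window of *Plin5* (chr17:56117249-56117548), not shown, held no match. *Plin3* (chr17:56290462-56290761, minus strand) held none of the 3. Of 32851 RefSeq promoter windows, 3.86% hold the direct repeat with up to 2 mismatches, 7.15% the E-box and 7.43% TATAAG. Among the other 6 members only *Mgll* had a match, an E-box 44 bases before its start. A match is a description of letters, not a binding site.

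*Plin4* and *Plin5* are neighbours. Both lie on the minus strand of mouse chromosome 17, with 1798 bases between the end of *Plin4* and the beginning of *Plin5*, as the table gives their positions. *Plin3* is the next perilipin on that chromosome, 161413 bases from *Plin5*. *Plin2* is on chromosome 4.

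The libraries held 15748719 to 23345534 reads, of which 78.1% to 84.3% fell on exons, and each member had at least 38 reads in every library. Among hepatocyte markers, 7 of 8 were in the table and all 7 were high (albumin 25401 FPKM or more). Of the 9 adipocyte markers, adiponectin (*Adipoq*) was at 0 in 10 libraries and 0.07 FPKM in 1, and perilipin 1 (*Plin1*) was at 0 in 11; the remaining Con library at day 30 had 0.795 and 0.312 FPKM, with *Cfd* at 3.97 and *Fabp4* at 14.5. That library is called the Con library with adipocyte transcripts. The effect of leaving it out is stated for *Plin4* at day 30 and for *G0s2* over both days. Among the day 30 Con mice it was also lowest in *Plin2*, *Plin5*, *Pnpla2* and *Mgll*. With each library left out in turn, this one included, their log2 differences of CR from Con at day 30 stayed within these ranges: -1.10 to -0.84 (*Plin2*), 0.79 to 1.19 (*Plin5*), 0.36 to 0.40 (*Pnpla2*) and -0.32 to 0.15 (*Mgll*). Only 4 adipocyte markers were high enough to be tested: *Fabp4*, *Lipe*, *Adrb3* and *Car3* (168 to 887 FPKM). In the limma test described below, 1 was lower in CR at day 25 and 2 at day 30, and none was higher. *Adrb3* was lower in every CR mouse at both days (limma adjusted p = 0.069 and 0.015). Summed stellate cell markers were higher in CR at both days (76.0 to 85.3 against 64.3 to 71.7 FPKM, then 82.2 to 98.1 against 56.0 to 73.1), and summed Kupffer cell markers were lower in CR at day 25 (26.3 to 34.6 against 40.5 to 69.8), as were summed lymphocyte markers (0.567 to 1.082 against 1.172 to 1.38). At day 30 summed sinusoidal endothelium markers were higher in CR (40.7 to 45.7 against 31.8 to 34.7), and so were summed hepatocyte markers (56791 to 69164 against 39293 to 48597). *Dcn* made up 40.0 to 65.5 FPKM of the stellate sum, and albumin most of the hepatocyte sum. In the same test, 1 of 7 stellate markers rose at day 25 and 4 at day 30. Of 8 Kupffer cell markers, 4 fell and 0 rose at day 25, while at day 30 1 rose and 0 fell. *Marco* was higher in every CR mouse at day 30 (3.3 to 6.3 against 1.6 to 2.4 FPKM). At day 30, 2 of 6 endothelial and 3 of 7 hepatocyte markers rose, but *Apoa1* was lower in every CR mouse. Among all tested genes, 14.9% and 24.7% passed. No lymphocyte marker reached 1 FPKM. The part of these cell types in the results below was not tested.

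**Figure D1:**
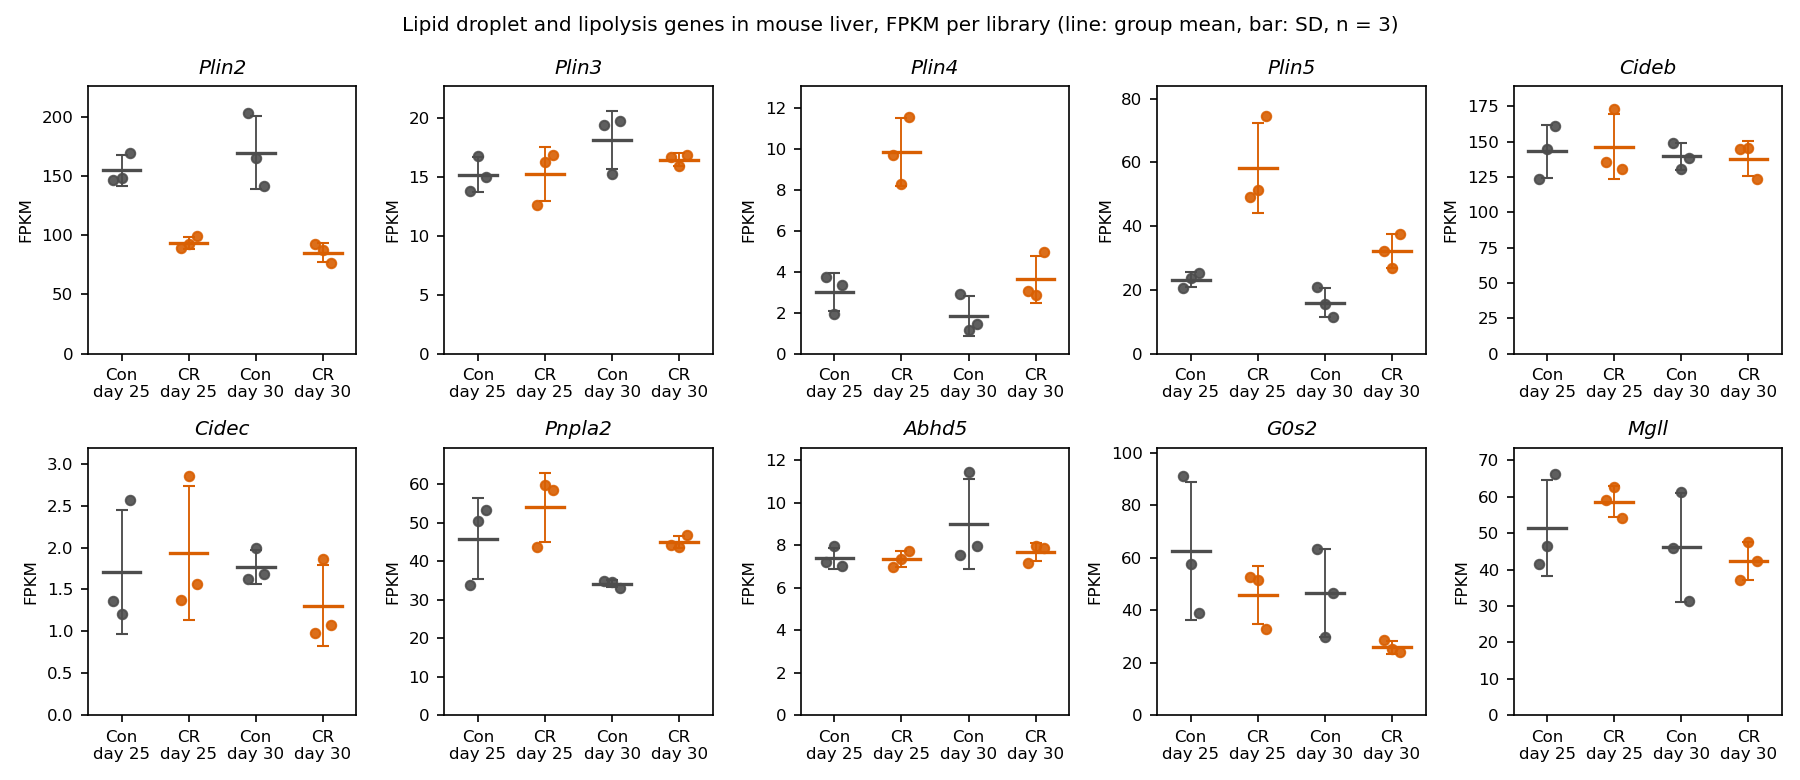
FPKM of the 10 genes in each library, 1 point per mouse, with the group mean (line) and SD (bar, n = 3). CR points lie below Con for *Plin2* and above Con for *Plin5* at both days, while *Plin3*, *Cideb*, *Cidec*, *Abhd5* and *Mgll* overlap at both.

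Differences between diets were tested with limma on log2(FPKM + 1), and a gene passed when its Benjamini-Hochberg adjusted p over 10593 tested genes was under 0.1. All 10 members were tested, and 3 passed at day 25 and at day 30. Of all tested genes, 14.9% passed at day 25 (593 higher, 989 lower in CR) and 24.7% at day 30 (882 higher, 1737 lower), so CR differences were frequent among all genes. That split depends on the scaling: with median-ratio scaling it was 929 higher and 799 lower at day 25, and 1319 higher and 1236 lower at day 30. The median log2 difference over the members was 0.07 at day 25 and -0.10 at day 30, beside -0.04 and -0.07 over all tested genes.

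*Plin2* coats most droplets in hepatocytes and is degraded when no droplet binds it. At day 25 it stood at 147, 148 and 170 FPKM in the Con mice and 89.1, 92.9 and 99.2 FPKM in the CR mice. At day 30 the Con mice had 203, 165 and 141 FPKM and the CR mice 92.2, 87.3 and 76.4 FPKM. Every CR mouse was below every Con mouse at its day. The log2 difference was -0.72 (SE 0.13, limma adjusted p = 0.0071) at day 25 and -0.97 (SE 0.13, limma adjusted p = 7.6e-04) at day 30.

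*Plin5* binds both ATGL and its coactivator on the droplet. It was at 20.5, 23.7 and 25.2 FPKM in the Con mice and 49.0, 51.4 and 74.6 FPKM in the CR mice at day 25. The day 30 values were 20.7, 15.7 and 11.5 FPKM in Con and 32.3, 26.7 and 37.6 FPKM in CR. The CR mice were again apart from the Con mice at both days, this time above them. The log2 difference was 1.28 (SE 0.21, limma adjusted p = 0.0036) at day 25 and 0.99 (SE 0.21, limma adjusted p = 0.0071) at day 30.

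*Plin4* was among the lowest members. The day 25 values were 3.74, 1.94 and 3.35 FPKM in Con and 9.71, 8.29 and 11.6 FPKM in CR, with no overlap. At day 30 they were 2.93, 1.16 and 1.42 FPKM in Con and 3.08, 2.86 and 4.97 FPKM in CR, where the highest Con mouse lay above the lowest CR mouse. The log2 difference was 1.46 (SE 0.24, limma adjusted p = 0.0041) at day 25 and 0.73 (SE 0.24, limma adjusted p = 0.059) at day 30. The day 30 call rests on single libraries: it was lost without the Con library with adipocyte transcripts (log2 0.64, adjusted p = 0.16), without the Con mouse lowest in *Plin4* (0.56, adjusted p = 0.19), and without CR mouse 1 (adjusted p = 0.101) or 3 (adjusted p = 0.18).

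*Plin3*, the perilipin that shuttles between the cytosol and small new droplets, lay between 12.6 and 19.7 FPKM in all 12 libraries. Con and CR overlapped at both days. Its log2 difference at day 25 had a 95% interval from -0.28 to 0.28, and at day 30 from -0.40 to 0.15 (limma adjusted p = 1.00 and 0.53).

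**Figure D2:**
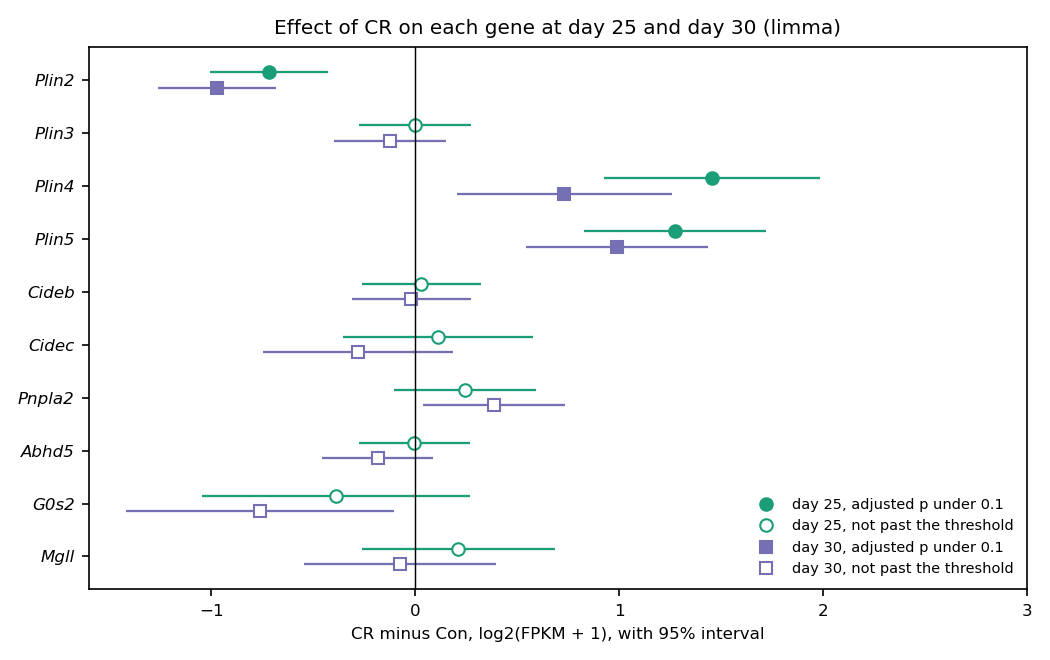
Difference between CR and Con in log2(FPKM + 1) for each gene, with 95% intervals, at day 25 (circles) and day 30 (squares); filled symbols passed the limma test (adjusted p under 0.1). *Plin4* and *Plin5* lie to the right of 0 and *Plin2* to the left at both days, and the intervals of *Plin3*, *Cideb*, *Cidec*, *Abhd5* and *Mgll* span 0.

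Because FPKM is per length, the 4 perilipins can be added within a library. *Plin2* made up 78.9% ± 1.01 (SD, n = 3) of their summed FPKM in Con and 53.2% ± 3.61 in CR at day 25, and 82.5% ± 1.25 and 62.0% ± 5.05 at day 30. *Plin5* took 11.8% ± 0.659 in Con and 32.6% ± 3.69 in CR at day 25, and 7.67% ± 0.934 and 23.4% ± 3.88 at day 30. Every CR mouse had a smaller *Plin2* share and a larger *Plin5* share than every Con mouse of its day. *Plin4* stayed small, with 1.54% in Con and 5.57% in CR at day 25, then 0.865% and 2.65%. The summed level was 196 FPKM in Con and 177 FPKM in CR at day 25 (SD 15.1 and 22.1), with overlapping mice, and 206 and 138 FPKM at day 30 (SD 36.7 and 5.95), with all CR mice below.

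**Figure D3:**
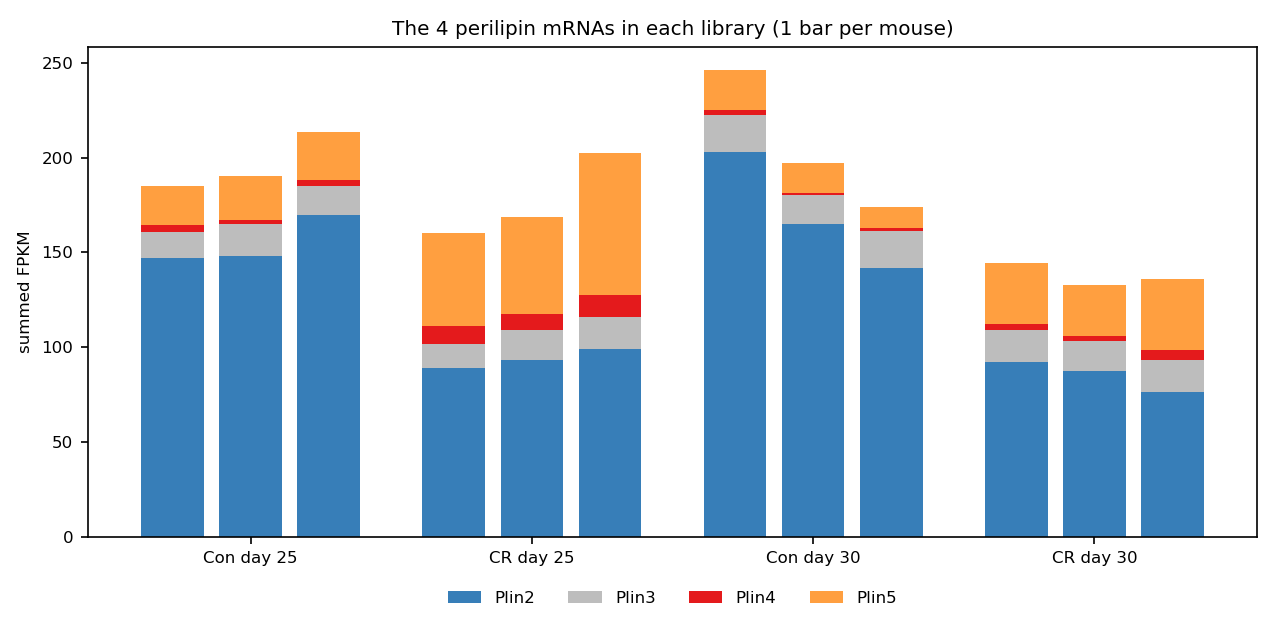
Stacked FPKM of the 4 perilipins, 1 bar per mouse in 4 groups. The *Plin5* segment is larger and the *Plin2* segment smaller in CR than in Con at both days.

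The ratio of *Plin2* to *Plin5* within a library does not depend on scaling between libraries. In Con it ran from 6.26 to 7.15 at day 25 and from 9.80 to 12.3 at day 30. In CR it ran from 1.33 to 1.82 and from 2.03 to 3.27. The geometric mean ratio was 4.10-fold lower in CR at day 25 and 4.06-fold lower at day 30, and no mice of the 2 diets overlapped. *Plin4* per *Plin2* was 5.57-fold higher in CR at day 25 and 4.12-fold higher at day 30, with no overlap at either day, including day 30, when *Plin4* alone overlapped.

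**Figure D4:**
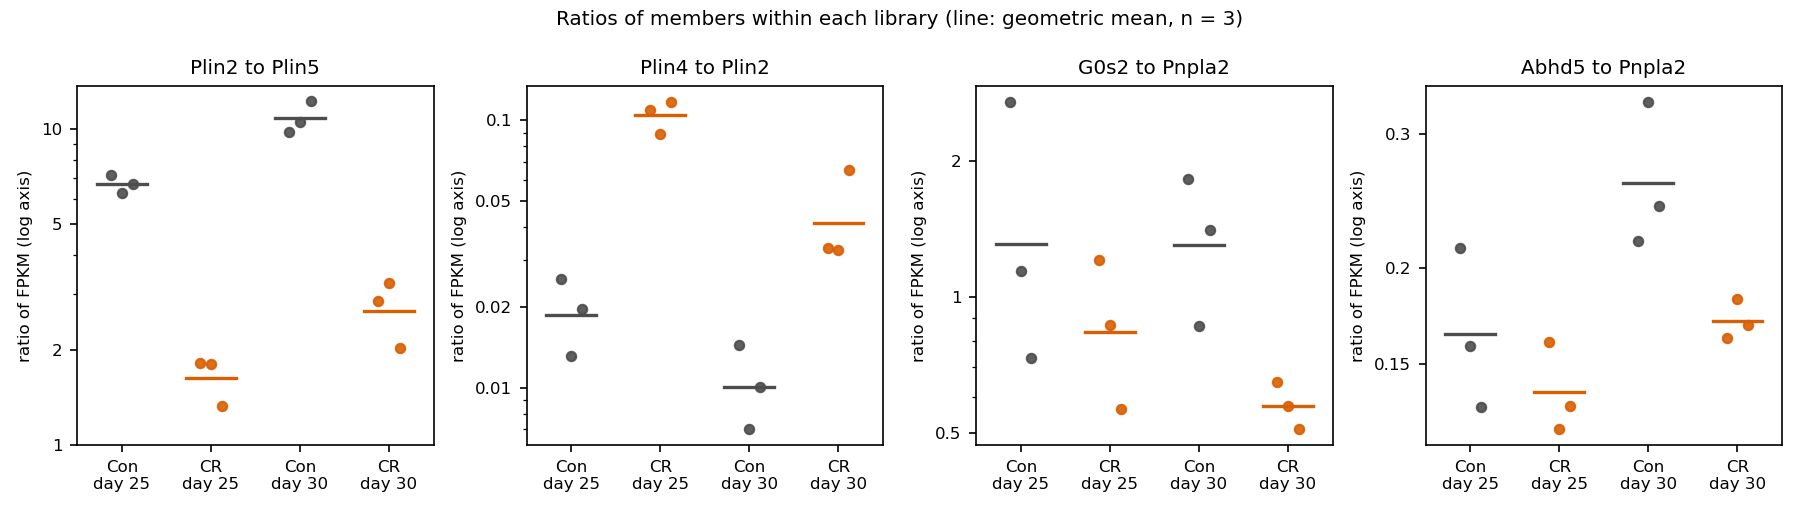
Ratios of FPKM within each library on log axes, 1 point per mouse, with the geometric mean of each group (line, n = 3). *Plin2* to *Plin5* is lower and *Plin4* to *Plin2* higher in every CR mouse at both days, and both *G0s2* and *Abhd5* relative to *Pnpla2* are lower in every CR mouse at day 30.

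*Cideb*, the CIDE protein of hepatocytes, was as abundant as *Plin2* in Con liver. It lay between 124 and 173 FPKM in all 12 libraries, and the diets overlapped at both days. The 95% interval of its log2 difference ran from -0.26 to 0.32 at day 25 and from -0.31 to 0.27 at day 30 (limma adjusted p = 0.93 and 0.94). Of its exon bases in the GENCODE annotation, 76.3% also belong to *Nop9* on the opposite strand, itself at 36.8 to 49.5 FPKM. Whether reads were counted by strand is not given in the sources used here, so part of the *Cideb* value may belong to that gene.

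*Cidec*, the CIDE protein of fat tissue that fuses droplets and is induced in fatty liver, had the lowest mean of the 10 in every group, between 0.977 and 2.86 FPKM. That is 38 to 77 reads, a counting error of 16.2% at the lowest. The log2 difference was 0.11 at day 25 and -0.28 at day 30 (limma adjusted p = 0.80 and 0.39), with overlap at both days.

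*Pnpla2* encodes ATGL, which starts the breakdown of triglyceride. At day 25 the Con mice had 33.8, 50.3 and 53.3 FPKM and the CR mice 43.7, 59.7 and 58.5 FPKM. At day 30 the Con mice had 34.79, 34.65 and 33.05 FPKM and the CR mice 44.3, 43.8 and 46.7 FPKM. The groups overlapped at day 25 and were apart at day 30, with CR above and little spread in either group. The log2 difference was 0.24 (SE 0.16, limma adjusted p = 0.38) at day 25 and 0.39 (SE 0.16, limma adjusted p = 0.12) at day 30. The labels number the mice of day 25 but do not say that they were matched. With the number as a replicate block, the limma adjusted p was 0.095, past the threshold. That block was chosen because same-number mice deviated together in these same data, so the call is not independent support. *Pnpla2* was higher in CR in all 3 same-number pairs. Without a block, the day 25 difference ran from 0.044 (without Con mouse 1, limma adjusted p = 0.90) to 0.39 (without CR mouse 1) as 1 library was left out. The day 30 difference of *Pnpla2* then ran from 0.36 to 0.40, with limma adjusted p from 0.045, past the threshold, to 0.24.

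*G0s2*, a small inhibitor that binds ATGL, varied widely among Con mice. It stood at 91.2, 57.5 and 39.0 FPKM in Con and 52.58, 51.69 and 33.01 FPKM in CR at day 25. The day 30 values were 63.4, 29.9 and 46.5 FPKM in Con and 28.7, 25.2 and 23.9 FPKM in CR. Day 25 mice overlapped, and at day 30 every CR mouse was below every Con mouse, the closest pair being 28.7 and 29.9 FPKM. The log2 difference was -0.39 (SE 0.30, limma adjusted p = 0.47) at day 25 and -0.76 (SE 0.30, limma adjusted p = 0.1045, just above the threshold) at day 30. The day 25 value ran from -0.079 without Con mouse 1 to -0.68 without Con mouse 3, and was -0.17 without CR mouse 3. The day 30 value was -1.04 (limma adjusted p = 0.046, past the threshold) without the Con mouse at 29.9 FPKM and -0.51 without the Con mouse at 63.4 FPKM. It also passed without Con mouse 1 or 3 or CR mouse 3 of day 25. In all 3 same-number pairs of day 25, which the labels do not call matched, *G0s2* was lower in CR. With the block by number its limma adjusted p was 0.30.

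*Abhd5*, the coactivator of ATGL, was low and steady at 6.99 to 7.96 FPKM at day 25. At day 30 it reached 11.4 FPKM in 1 Con mouse and lay between 7.17 and 7.98 FPKM in the others. Its log2 difference was -0.0041 at day 25 and -0.18 at day 30 (limma adjusted p = 0.99 and 0.33). Without the Con mouse at 11.4 FPKM the day 30 difference was -0.016, and it reached -0.29 without the Con mouse at 7.56 FPKM. In the GENCODE annotation 16% of its exon bases are shared with an antisense gene.

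*Mgll*, the last lipase of the chain, ranged from 31.3 to 66.3 FPKM, and the diets overlapped at both days. The 95% interval of its log2 difference ran from -0.26 to 0.68 at day 25 and from -0.55 to 0.40 at day 30, so a moderate change in either direction was not detectable with 3 mice a group (limma adjusted p = 0.59 and 0.84). Its day 25 difference of 0.21 ran from 0.074 without Con mouse 1 to 0.41 without Con mouse 3.

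Counted over the members, the groups did not overlap for 3 genes at day 25 and for 4 at day 30, where 28.2% and 36.4% of all tested genes did not overlap. At day 30 those 4 were *Plin2* and *G0s2* below and *Plin5* and *Pnpla2* above. The ratio of inhibitor to lipase, *G0s2* to *Pnpla2*, had a geometric mean of 1.31 in Con and 0.838 in CR at day 25, with overlap between the groups. By mouse number the Con and CR values were 2.69 and 1.20, 1.14 and 0.865, and 0.732 and 0.564, but the labels do not say that same-number mice were matched. At day 30 the geometric means were 1.30 and 0.575, and all CR mice were below. The ratio of coactivator to lipase, *Abhd5* to *Pnpla2*, overlapped at day 25 and was 0.259 in Con and 0.171 in CR at day 30, with all CR mice below. *Mgll* to *Pnpla2* and *Cidec* to *Cideb* overlapped at both days.

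Both days were then fitted together with day as a covariate, so that 6 mice stood on each diet. In that fit 5 members passed, where 40.6% of all tested genes did. *Plin4* (log2 1.09, SE 0.19, limma adjusted p = 0.0012), *Plin5* (1.13, SE 0.15, adjusted p = 1.2e-04) and *Pnpla2* (0.31, SE 0.11, adjusted p = 0.045) rose. *Plin2* (-0.85, SE 0.10, adjusted p = 5.6e-05) and *G0s2* (-0.58, SE 0.21, adjusted p = 0.055) fell. The *G0s2* call was lost without Con mouse 1 or CR mouse 3 of day 25, CR mouse 3 of day 30, the Con mouse highest in *G0s2* at day 30, or the Con library with adipocyte transcripts (limma adjusted p between 0.102 and 0.121), and *Pnpla2* passed without any 1 library. The transcripts of ATGL and of its inhibitor moved in opposite directions in this fit, and neither had passed the main test at a single day.

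The effect of CR did not pass a test of difference between the days for any member. The largest was *Plin4*, whose log2 effect was 0.72 smaller at day 30 (95% interval of the difference -1.47 to 0.02, limma adjusted p = 1.00). Limma and voom each gave 0 members, limma gave 0 at an unadjusted p under 0.05, and 0.00944% of tested genes, 1 gene, passed. The interval for *Plin5* was -0.92 to 0.35 and for *Plin2* -0.67 to 0.15, wide enough to hold sizeable differences.

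Between the days within a diet, *Plin4* fell by 1.24 on the log2 scale from day 25 to day 30 of CR (SE 0.24, limma adjusted p = 0.086), from a mean of 9.86 to 3.64 FPKM. It was the 1 member that passed, where 0.321% of tested genes did. The call was lost without any 1 of the 3 CR mice of day 25, without CR mouse 1 or 2 of day 30, and without Con mouse 2 or 3 of day 25, which enter through the shared spread. In CR, *Plin5* was at 58.3 and then 32.2 FPKM (log2 -0.82, limma adjusted p = 0.18), *G0s2* at 45.8 and 25.9 FPKM (-0.77, adjusted p = 0.47) and *Mgll* at 58.6 and 42.4 FPKM (-0.46, adjusted p = 0.57). For these 4 genes every day 30 CR mouse lay below every day 25 CR mouse, where 14.7% of tested genes did not overlap in this comparison and 8.39% were lower without overlap. *Pnpla2*, *Cidec*, *Plin2*, *Cideb*, *Plin3* and *Abhd5* overlapped.

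In Con no member passed between the days with limma or voom and all 10 overlapped, where limma called 0% of tested genes and 11.6% did not overlap. At an unadjusted p under 0.05 limma gave 2 members, both lower at day 30: *Plin5*, with means of 23.1 and then 16.0 FPKM (log2 -0.54), and *Pnpla2*, with 45.8 and 34.2 FPKM (log2 -0.39). These Con means enter the contrast of CR with Con at day 30, but no change in Con was shown. Their part in that contrast was not tested. *Plin4* had 3.01 and 1.84 FPKM (log2 -0.52).

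The order of levels also differed. In Con at both days *Plin2* and *Cideb* came first and overlapped each other, followed by *G0s2*, *Mgll* and *Pnpla2*, which overlapped from one to the next. In CR *Cideb* stood above *Plin2* with no overlap at either day. *Plin5*, in the sixth place in Con at day 25, was among *Mgll*, *Pnpla2* and *G0s2* in CR, each overlapping its neighbour. *Plin4* overlapped *Cidec* at the foot of the order in Con and was apart from it in CR, and at day 25 of CR it also stood above *Abhd5* (9.86 against 7.36 FPKM).

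Over the 12 libraries, which share the diet groups, *Plin4* and *Plin5* had the highest correlation of log2 levels among the members (Pearson r = 0.93). With each group's mean removed, r was 0.59. *Plin2* and *Plin5* were opposed in level (r = -0.68), yet varied in the same direction among mice of one group (r = 0.62 after removing group means). *Cideb* and *Cidec* had r = 0.66 in level and 0.67 within groups. Across all tested genes, the 3 with the highest r to *Plin5* were *Shb* (0.98), *Susd6* (0.96) and *Fam107a* (0.96). Those nearest to *Plin4* were *Shb* (0.95), *Sec14l4* (0.93) and *Plin5* itself (0.93), and those nearest to *Plin2* were *Ncald* (0.98), *Elac1* (0.97) and *Psmd11* (0.96).

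Other genes of the same biology were taken from lists chosen by function. Of all tested genes, 14.9% passed at day 25 and 24.7% at day 30, and the counts of every list are to be read beside these shares. Of 17 further lipid droplet proteins tested, none passed at day 25 and 2 fell at day 30: *Fitm1*, which takes part in the budding of droplets (log2 -0.98, limma adjusted p = 0.076), and *Spast*, which links droplets to peroxisomes (-0.28, adjusted p = 0.082). Both were named after their values were seen, as the only ones to pass. The median log2 difference over the 17 was 0.01 at day 25 and -0.00025 at day 30.

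Of 19 other lipases and esterases, 4 rose and 2 fell at day 25, and 2 rose and 3 fell at day 30. *Ces1g*, a liver carboxylesterase (log2 1.07 and 0.80, limma adjusted p = 0.0073 and 0.018), and *Abhd6*, a second monoacylglycerol lipase (0.98 and 0.49, adjusted p = 0.0038 and 0.057), rose at both days. *Lpl*, lipoprotein lipase, fell at both (-0.85 and -1.01, adjusted p = 0.060 and 0.021) from a low level of 2.80 and 4.10 FPKM in Con. *Ces1g* belongs to a cluster of near-identical genes, so its reads may be split among copies.

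Of 11 genes of triglyceride synthesis tested, 5 rose and 0 fell at day 25, and 5 rose and 2 fell at day 30. *Lpin1*, a phosphatidate phosphatase that also acts as a coregulator of transcription, rose most, from 40.2 to 203 FPKM at day 25 (log2 2.47, limma adjusted p = 0.0029) and from 20.7 to 175 FPKM at day 30 (3.01, adjusted p = 4.9e-04). *Lpin2* (0.84 and 0.92), *Dgat2*, which makes triglyceride from diacylglycerol (0.72 and 0.47), and *Agpat1* (0.47 and 0.50) rose at both days. The median over the list was 0.16 at day 25 and 0.31 at day 30.

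*Plin2* and *Plin5* are known targets of the fatty acid receptor PPAR alpha. Of 18 other PPAR alpha targets of fatty acid use, 1 rose and 1 fell at day 25, and 3 rose and 2 fell at day 30. Among all tested genes 14.9% and 24.7% passed. *Angptl4*, an inhibitor of lipoprotein lipase, rose at both days (log2 0.57 and 0.67, limma adjusted p = 0.073 and 0.029). The median over the 18 was 0.02 at day 25 and -0.07 at day 30.

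Among 21 transcription regulators, 5 rose and 1 fell at day 25, and 3 rose and 2 fell at day 30. *Nr1d1*, the clock repressor REV-ERB alpha, fell from 45.5 to 8.03 FPKM at day 25 (log2 -2.37, limma adjusted p = 5.1e-06) and from 50.6 to 9.45 FPKM at day 30 (-2.28, adjusted p = 4.0e-06). The hour at which livers were collected is not given in the sources used here, and the time since the last meal and the phase of the clock cannot be told apart from the diet. *Ppargc1a*, a coactivator of fatty acid oxidation (0.741 and 1.097), *Foxo1*, a fasting regulator of gluconeogenesis (0.76 and 0.82), and *Cebpb* (0.78 and 0.71) rose at both days.

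*Ppara* itself rose at day 25 (log2 0.54, limma adjusted p = 0.047) and had a log2 difference of 0.15 at day 30 (adjusted p = 0.54). *Pparg*, which drives droplet genes in fatty liver, had -0.40 and -0.50 (adjusted p = 0.26 and 0.12), and *Srebf1*, the insulin-driven regulator of fatty acid synthesis, had 0.06 and 0.11 (adjusted p = 0.94 and 0.86).

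**Figure D5:**
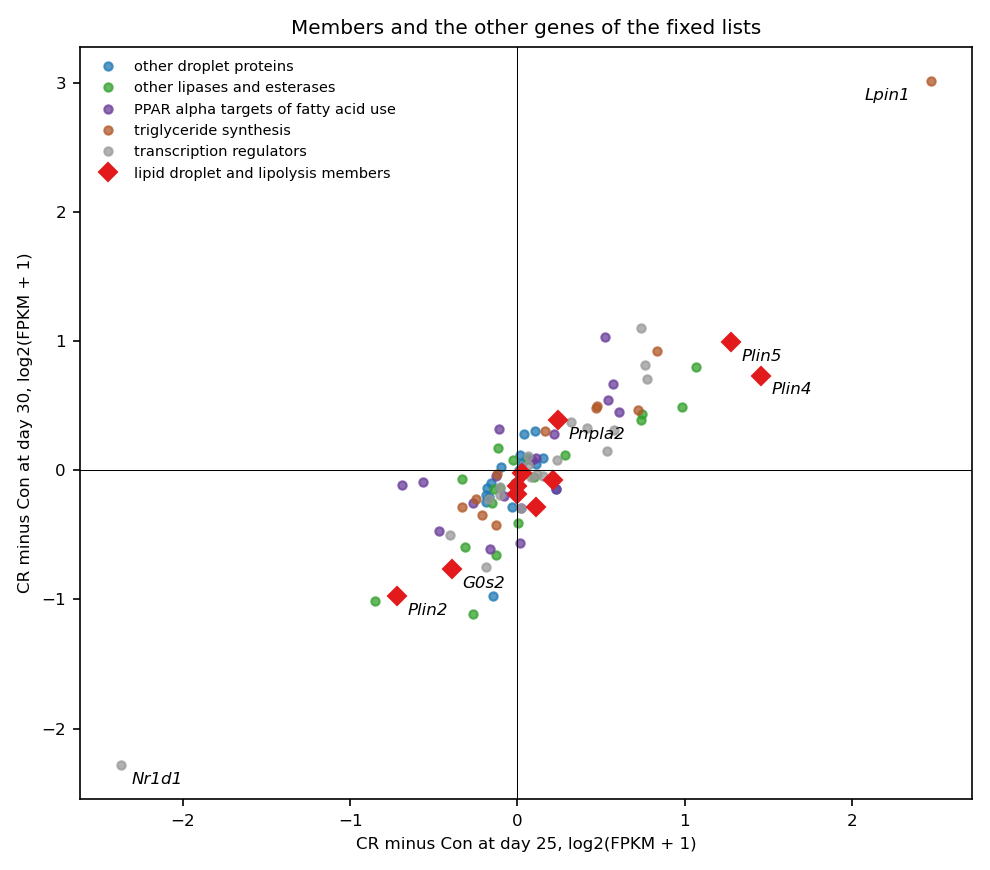
Difference between CR and Con in log2(FPKM + 1) at day 25 (horizontal axis) and day 30 (vertical axis) for the 10 members (diamonds) and the other genes of the lists (circles). *Plin4* and *Plin5* lie in the upper right and *Plin2* and *G0s2* in the lower left, all nearer the centre than *Lpin1* (2.47 and 3.01) and *Nr1d1* (-2.37 and -2.28).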

How the data were processed

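Liver RNA was sequenced from 12 mice. Per the labels and the file headers, the authors aligned reads to mm10 with BWA (CASAVA 1.8.2 and FastQC are also listed) and counted exons with HOMER, and they deposited FPKM values, normalised to the reads of each library and to exon length. The submitters list DESeq2, but counts were not used here as the main input, since the unit is FPKM. Whole reads were recovered from the FPKM steps (all of 1500 low values per library came out whole within 0.02 read beyond rounding), which gave depths of 15748719 to 23345534 reads.

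The 10593 genes that reached 1 FPKM in 3 or more libraries were tested with limma 3.58.1 in R 4.3.3 on log2(FPKM + 1), with 1 model over the 4 groups, a trend in the prior spread and Benjamini-Hochberg adjustment. The pseudocount understates changes of low genes. The fit was tested on simulated data. Columns of Con at day 30 could be matched to their group but not to numbered mice. At day 25, mice of the same number deviated together (r = 0.37, 0.31 and 0.11 between Con and CR). Mice of different numbers had r from -0.29 to 0.013. A block by number was therefore fitted as an alternative, chosen from these same data. Nothing says that mice were matched.

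The genes and lists were chosen with earlier results of these data known. All 10 members were named, and from each other list at most 4 genes past the test at both days with the largest differences, with *Ppara*, *Pparg* and *Srebf1* in any case. One gene that this rule names is not reported here.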

Additional observations from a re-analysis of the deposited data

How the results depend on the processing

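The 3 members that passed at day 25 passed under all alternatives at that day (another pseudocount, filter, scaling, TPM, prior, voom on recovered reads and each library left out), except that *Plin2* missed a 2-fold minimum. Leaving out 1 library gave 3 members at day 25, 2 to 5 at day 30 (5 without Con mouse 1 of day 25), 4 to 5 over both days and 0 to 1 between the days of CR. Without Con mouse 1 of day 25, 910 of all 10593 tested genes passed as higher and 1770 as lower at day 30. With a replicate block at day 25, 4 members passed (*Pnpla2* added), where 675 of all tested genes were higher and 1073 lower. The block changed no other call: 5 over both days and 0 for the difference between days. Numbers did not pair the CR mice of the 2 days (r = -0.38, 0.30 and 0.078), and that block kept 1 member.

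At day 30, 5 members passed with only the 2 groups fitted (*Pnpla2* and *G0s2* added), where 795 of all 10593 tested genes were higher and 1522 lower. With a log2 minimum of 1, 0 members passed at day 30, where 98 genes were higher and 136 lower. That minimum left 2 members over both days, where 87 genes were higher and 89 lower. *Plin4* at day 30 also missed with no filter (limma adjusted p = 0.13). Its fall within CR gave 0 members with a pseudocount of 0.1, no filter, TPM, quantile normalization or adjusted p under 0.05. The cause was not tested.

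Differences near 0 changed sign, none of which passed. With median-ratio scaling *Plin3* was 0.059 and *Abhd5* 0.051 at day 25, *Cideb* 0.063 and *Mgll* 0.0053 at day 30, and *Plin3* 0.0067 over both days. With quantile normalization *Plin3* was 0.016, *Abhd5* 0.043 and *Cideb* -0.031 at day 25, and *Cideb* -0.064 over both days (-0.021 with TPM). With 1 library left out, day 25 values ran from -0.075 to 0.12 for *Plin3*, -0.096 to 0.12 for *Cideb*, -0.10 to 0.33 for *Cidec* and -0.037 to 0.044 for *Abhd5*. Day 30 values ran from -0.064 to 0.057 for *Cideb* and -0.32 to 0.15 for *Mgll*, values over both days from -0.053 to 0.041 for *Cideb* and -0.026 to 0.18 for *Mgll*, and differences between days from -0.14 to 0.077 for *Cideb* and -0.0016 to 0.34 for *Pnpla2*. With 3 mice a group and 38 to 77 reads, moderate changes of *Cidec* were not detectable.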
